A study of Mus musculus with 7 samples.

Results

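Blood mononuclear cells of mice bled repeatedly from the tail vein were compared with those of mice bled from the facial vein, both without ibuprofen. The comparison used 2 of the 7 libraries of the series, chosen by their labels alone. It covered the 6133 of 45777 genes whose mean in these 2 libraries reached 10 CPM, where CPM is the count of a gene relative to the scaled size of its library. The series held RNA sequencing of peripheral blood mononuclear cells (PBMC), the lymphocytes and monocytes of blood, taken at week 8 of serial collection. Its groups were a control called Non, and mice bled from the facial vein (FV), from the retro-orbital plexus (RP) or from the tail vein (TV). Each route was sampled without and with ibuprofen, a drug that blocks cyclooxygenases. Each group had 1 library, and the study asked how route and drug bear on pain and inflammation, per its title. Strain, sex and age of the mice, and the number of animals behind each library, were not given in the sources used here. By label the pair differed in route alone, and both groups had been bled serially. With 1 library on each side no spread could be estimated, so all differences below are described by size and none was tested. An animal, a preparation and a route cannot be told apart.

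Mononuclear cells are usually separated from blood on a density gradient, which removes most mature red cells and granulocytes, but reticulocytes, platelets and activated neutrophils can remain in the layer. Reticulocytes are young red cells that still carry globin mRNA, platelets carry RNA from their megakaryocyte parents, and both can therefore be read in such libraries. Neutrophils and monocytes make calprotectin, lipocalin and serum amyloid during an acute phase response, the early systemic reaction to injury or infection, and red cell production is known to increase after blood loss.

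Total counts were 47903611 in the FV library and 59236490 in the TV library, within a range over the series of 47903611 to 63801032. Adult globin transcripts took 53.4% of all counts in the FV library and 70.9% in the TV library, against 46.3% to 64.6% in the other 5 libraries. Outside the erythroid gene lists, 20711776 counts remained in FV and 14460871 in TV. A level of 10 CPM corresponded to 560 counts in FV and 327 counts in TV, and the 95% counting interval of a log2 fold was at most 0.68 wide, with a median width of 0.25. Such intervals cover counting error only. The TMM scaling factor was 1.17 for FV and 0.553 for TV, the lowest of the series. With library size alone, log2 folds of TV over FV were lower by about 1.08, and 2277 of the 2567 compared genes above 0 turned below 0. Every direction given below as higher in TV with a log2 fold under that size therefore depends on the scaling, single genes included. Of 14 gene lists with a median above 0, the 4 erythroid lists alone stayed above 0 with library size and on the deposited TPM scale, and the other 10 are marked where they are described. Of the counts outside the erythroid lists, mitochondrial ribosomal RNA took 2.75% in FV and 3.23% in TV, against 1.06% to 2.12% in the other 5 libraries. The 18S ribosomal entry Rn18s-rs5 stood at 1021 CPM in FV and 3786 CPM in TV. The part of ribosomal RNA or of RNA quality in the results was not tested. The PBMC label was met by transcripts of B cells (Cd79a), T cells (Cd3e) and monocytes (Csf1r), all at more than 30 CPM in both libraries, beside those of red cells, platelets and neutrophils. In such bulk samples, fewer cells of a type and less RNA per cell cannot be told apart.

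Of the 6133 genes, 349 were at least 2-fold higher in TV, or 5.69% of those compared, and 62 were at least 2-fold lower, or 1.01%. Together these 411 genes made up 6.7%. A gene low in 1 library could pass the expression limit through the other alone, which favours genes far apart in such counts. Of all genes compared, 41.9% were above 0 on the log2 scale of TV over FV and 58.1% below. A 4-fold difference was passed by 15 genes upward and 13 downward. The median log2 fold of TV over FV across all genes was -0.06, with 90% of genes between -0.56 and 1.05 at the 5th and 95th percentiles. Just below the expression limit lay Trappc5 and Dera, both at a mean of 9.99 CPM with log2 folds of -0.18 and -0.55, and just above it 2310011J03Rik and Pold1, with log2 folds of -0.32 and 0.31. The higher genes included transcripts of red cells and platelets. The erythroid lists held 63 of the 6133 genes compared and 46 of the 349. The platelet lists held 48 of the 6133 and 15 of the 349. On no list were 271 of the 349. The lower genes included transcripts of neutrophils and classical monocytes. The 2 neutrophil lists, with 13 and 21 genes compared, held 10 of the 62. The classical monocyte list, with 35 genes compared, held 4. On no list were 34 of the 62, and the number of all compared genes on no list is not given. These counts moved with scaling, since library size alone gave 9 higher and 3808 lower genes around an all-gene median of -1.14.

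**Figure D1:**
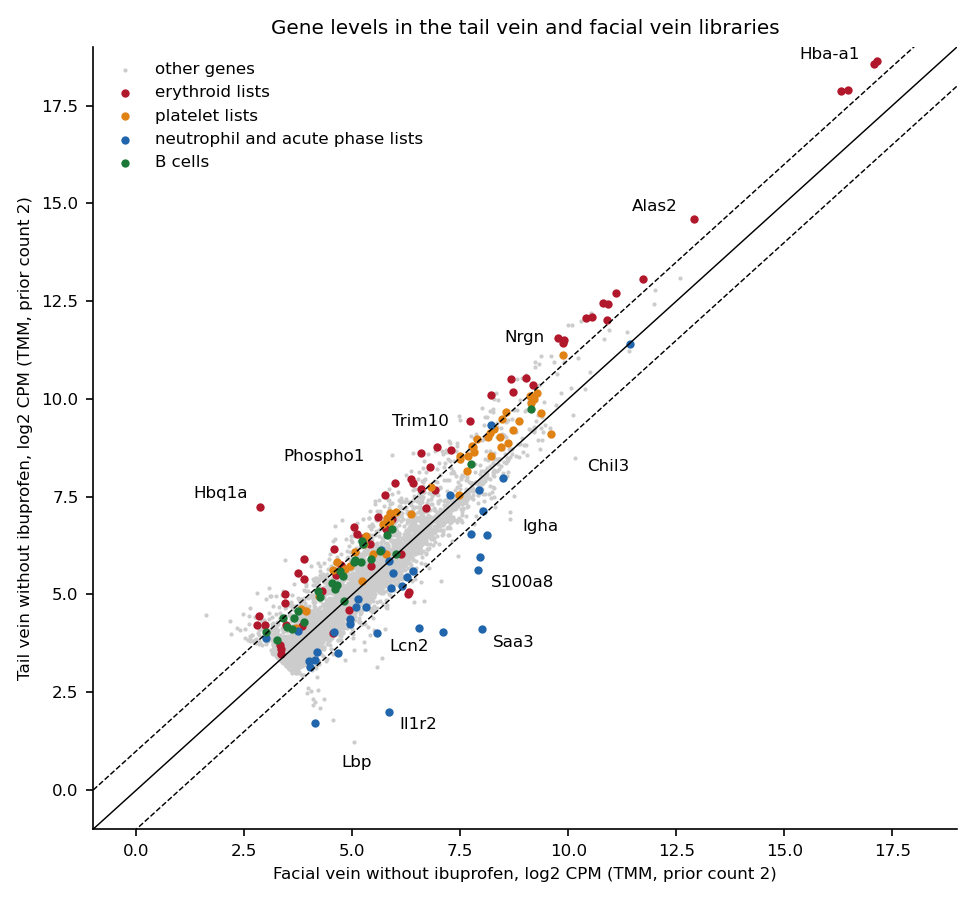
Each point is 1 of the 6133 genes, placed by its log2 CPM in the facial vein library (horizontal) and in the tail vein library (vertical), both without ibuprofen. The solid line marks equal levels and the dashed lines a 2-fold difference; 46 of 63 erythroid genes lie on or above the upper dashed line, and Saa3, Il1r2, Lcn2 and Lbp lie far below the lower one.

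The levels in the other 5 libraries were set beside those of the pair. For 338 of the 349 higher genes the TV library had the highest level of all 7 libraries, and for 102 of them the FV library had the lowest. The Non library lay between FV and TV for 219 of the 349, below both for 126 and above both for 4. For 52 of the 62 lower genes the FV library had the highest level of the 7, and for 10 the TV library had the lowest. Non lay below both for 42 of the 62, between them for 13 and above both for 7. These genes were picked by their difference in this pair, so an extreme rank of TV or FV is partly built in. The same shares over all compared genes are not given, and the low TMM factor of TV raises all its levels. The counts therefore describe ranks and do not show which library stood apart.

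The promoters below are those of 2 genes from the lower end and 2 from the higher end of the comparison, and show the DNA just before 1 RefSeq transcript start of each. For Saa3 that start lies inside the annotated gene, and the window of Trim10 overlaps the annotated gene start. They were chosen after their values were seen, because each holds letters bound by a factor of its cell lineage: GATA1 of red cells and platelets, and the C/EBP factors of granulocytes, monocytes and the acute phase. Each is the 250 bases before a RefSeq start, 5′ to 3′ on the gene's strand, in build GRCm38.p6, the same assembly as mm10. Capitals mark the motif letters, searched on both strands. The GATA motif was AGATAA, and a match on the opposite strand reads as its reverse complement. The C/EBP motif was TTGCNNAA, and the motifs did not overlap in these windows.
Saa3 chr7:46715677-46715926 (-): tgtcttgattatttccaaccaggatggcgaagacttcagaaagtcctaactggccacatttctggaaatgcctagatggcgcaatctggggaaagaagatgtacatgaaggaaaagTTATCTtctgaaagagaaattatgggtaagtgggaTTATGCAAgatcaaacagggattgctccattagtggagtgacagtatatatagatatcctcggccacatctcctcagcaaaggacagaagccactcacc
Lcn2 chr2:32387740-32387989 (-): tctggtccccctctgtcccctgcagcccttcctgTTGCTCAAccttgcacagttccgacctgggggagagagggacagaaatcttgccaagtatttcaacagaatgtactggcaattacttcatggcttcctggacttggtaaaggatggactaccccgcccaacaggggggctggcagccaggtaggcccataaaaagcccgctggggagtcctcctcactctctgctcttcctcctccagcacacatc
Trim10 chr17:36869324-36869573 (+): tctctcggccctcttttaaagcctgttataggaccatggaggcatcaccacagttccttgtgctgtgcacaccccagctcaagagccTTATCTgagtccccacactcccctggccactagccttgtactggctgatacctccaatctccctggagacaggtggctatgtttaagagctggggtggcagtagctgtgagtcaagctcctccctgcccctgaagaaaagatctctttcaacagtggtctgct
Alas2 chrX:150547167-150547416 (+): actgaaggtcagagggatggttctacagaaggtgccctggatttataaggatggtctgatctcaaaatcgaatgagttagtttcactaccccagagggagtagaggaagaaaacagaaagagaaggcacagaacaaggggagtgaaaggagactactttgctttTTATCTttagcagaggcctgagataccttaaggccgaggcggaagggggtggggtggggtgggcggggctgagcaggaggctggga
The window of Saa3 held both sets of letters, that of Lcn2 the C/EBP letters alone, and those of Trim10 and Alas2 the GATA letters alone. Over all 32851 RefSeq windows of this length, 9.99% held the GATA letters and 9.56% the C/EBP letters. A match is a description of the letters and not evidence of binding. Shares over the gene groups are not given, because only 261 of the 349 higher genes and 47 of the 62 lower genes had a window.

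Acute phase and iron-sequestering genes had the lowest median of the 37 lists with at least 5 genes past the limit. Of 24 genes on this list, 6 passed the expression limit. All 6 were below 0 and 3 were at least 2-fold lower in TV, against 58.1% and 1.01% of all genes. The median log2 fold was -1.65, against the all-gene median of -0.06. Saa3, a serum amyloid A made by inflamed tissue and myeloid cells, stood at 256 CPM in FV and 17.4 CPM in TV. It was at 0.676 and 0.157 CPM in RP without and with the drug, at 0.697 CPM in Non, and at 12.6 and 0.858 CPM in FV and TV with the drug. Saa3 was thus high in FV, and TV without ibuprofen was above the levels of Non and RP. Its log2 fold was -3.88, or 14.7-fold lower in TV. Lcn2, the lipocalin that withholds iron from bacteria by binding their siderophores, stood at 138 CPM in FV, 16.5 CPM in TV, 3.51 CPM in RP without ibuprofen and 4.34 CPM in Non, a log2 fold of TV over FV of -3.06. Lrg1, a leucine-rich glycoprotein of the acute phase that neutrophils store, stood at 93.7 and 17.7 CPM (-2.40). Haptoglobin (Hp), which binds free hemoglobin, stood at 261 and 139.8 CPM (-0.90), and complement C3 at 244 and 202 CPM (-0.27). The differences within the list thus ran from almost none to more than 10-fold.

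Lbp, the lipopolysaccharide-binding protein, stood at 32.8 CPM in FV and at 2.32 CPM in TV, and between 1.57 and 3.93 CPM in the other 5 libraries, a log2 fold of -3.80. Slc39a14, a zinc and iron importer that the acute phase induces in liver, followed the same order, with 20.3 CPM in FV and 4.13 to 5.34 CPM in the other 6 libraries. For both genes the FV library without ibuprofen stood alone, and TV lay within the range of the rest. Both were below 10 CPM in TV and passed the limit through FV alone.

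Neutrophil granule genes were lower in TV throughout. Of 29 genes on the granule and calprotectin list, 13 passed the expression limit, with a median log2 fold of -1.19. All 13 were below 0 and 8 were at least 2-fold lower, against 58.1% and 1.01% of all genes. S100a8 and S100a9 encode the chains of calprotectin, which binds zinc and calcium and is abundant in neutrophils. S100a8 stood at 241 CPM in FV, 49.4 CPM in TV and 17.5 CPM in Non, and S100a9 at 278, 91.7 and 37.9 CPM, with log2 folds of TV over FV of -2.29 and -1.6. The collagenase of neutrophil granules, Mmp8, stood at 248 CPM in FV and 62.5 CPM in TV (-1.99). The granule protein Ngp stood at 17.6 and 3.27 CPM (-2.42) and passed the limit through FV alone, which favours lower members in the count. Retnlg, a resistin-like protein of neutrophils, stood at 47.7 CPM in FV and 16.1 CPM in TV, where the level of TV was close to the 16.7 CPM of Non. Other members differed little, such as the gelatinase Mmp9 (-0.25) and lysozyme Lyz2 (-0.02), which monocytes also make. Summed over the list, the level was 4458 CPM in FV, 3319 CPM in TV and 1710.2 CPM in Non, so TV stood between the others on this sum. Lyz2 alone gave 2763 CPM of it in FV and 2721 CPM in TV. Without Lyz2, a choice made after seeing the data, the sums were 1695 CPM in FV, 599 CPM in TV and 302 CPM in Non, and the ratio of FV to TV was 2.83 in place of 1.34.

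Surface and signalling genes of neutrophils were more mixed. Of 31 genes 21 passed, with a median log2 fold of -0.58. In TV 2 were at least 2-fold lower, 1 was at least 2-fold higher and 6 were above 0. The all-gene shares were 1.01%, 5.69% and 41.9%. Il1r2, the decoy receptor that binds interleukin-1 without signalling, stood at 57.7 CPM in FV and 3.94 CPM in TV, and between 0.814 and 4.73 CPM in the other 5 libraries, a log2 fold of -3.86. The main receptor for granulocyte colony-stimulating factor, Csf3r, stood at 153 CPM in FV and 185 CPM in TV (0.27), and the chemokine receptor Cxcr2 at 61.3 and 46.6 CPM (-0.39). These receptor genes differed less than Il1r2, with Csf3r turning to -0.81 with library size alone. Il1r2 passed the limit through FV alone, here and on the other lists that hold it. The member at least 2-fold higher in TV was Grina (1.13), a membrane protein, with its highest level of the 7 libraries in TV, at 649.9 CPM against 297 CPM in FV. Its direction turned on the deposited TPM scale.

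The interleukin-1 list had a median log2 fold of -0.37 over 13 of 23 genes. At least 2-fold lower were 2 of the 13, against 1.01% of all genes. Beside Il1r2, the other was the accessory chain of the receptor, Il1rap, at 32.8 CPM in FV and 11.9 CPM in TV (-1.45). The cytokine gene Il1b itself stood at 50.7 CPM in FV and 70.2 CPM in TV (0.47, or -0.61 with library size alone), and the sensor Nlrp3 at 21.3 and 25.6 CPM (0.27). Il1r2 and Il1rap were thus lower in TV, while the direction of Il1b depended on the scaling. None of the 18 genes that passed on the TNF and NF-kB list and none of the 19 on the Toll-like receptor list was 2-fold apart, with medians of -0.11 and -0.07. The lowest members were Tnfaip3 (-0.63), the feedback enzyme of NF-kB, and Myd88 (-0.70), the adaptor of the Toll-like and interleukin-1 receptors.

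Genes of the glucocorticoid response are targets of the stress hormone corticosterone. Of 25 genes 16 passed, 2 were at least 2-fold lower in TV, 13 were below 0, where 58.1% of all genes lay, and 3 were above 0, with a median log2 fold of -0.30 against -0.06 for all genes. The 2 were Il1r2, which glucocorticoids induce, and Fkbp5, a chaperone of the glucocorticoid receptor that is a standard target of it. Fkbp5 stood at 51.6 CPM in FV, 10.3 CPM in TV, 11.5 CPM in Non and 19.1 CPM in FV with ibuprofen, a log2 fold of -2.32. Other targets were less far apart, with Tsc22d3 at 171 CPM in FV and 162 CPM in TV (-0.07) and Sgk1 at 0.09, while Per1 lay at -0.39, Dusp1 at -0.53 and Ddit4 at -0.87. Immediate-early genes, which are induced within minutes of a stimulus or of handling, had a median of -0.18 over 20 genes with none 2-fold apart.

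**Figure D2:**
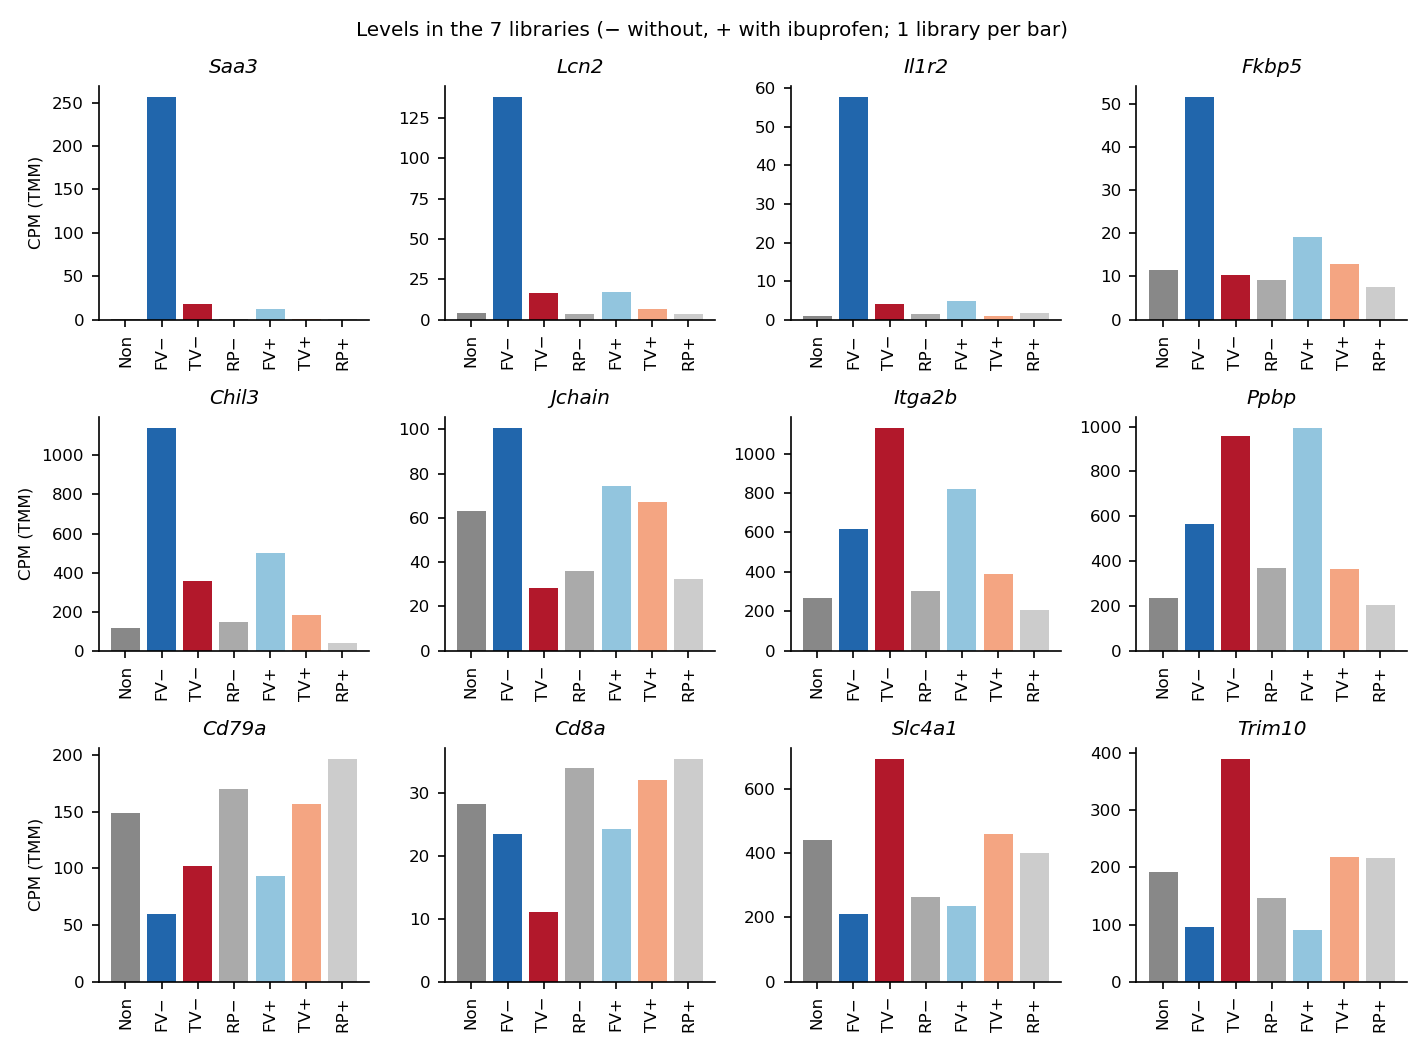
Bars give the level of 12 genes in CPM (linear axis from 0) in each of the 7 libraries, 1 library per bar, with − for without and + for with ibuprofen. Saa3, Lcn2, Il1r2, Fkbp5 and Chil3 peak in the facial vein library without ibuprofen, Slc4a1 and Trim10 peak in the tail vein library without ibuprofen, and Itga2b and Ppbp are high in the tail vein library without and the facial vein library with ibuprofen.

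Classical monocytes are the inflammatory subset that enters tissue. All 35 genes of their list passed, with a median log2 fold of -0.33. In TV 4 were at least 2-fold lower, none was at least 2-fold higher and 9 were above 0. The all-gene shares were 1.01%, 5.69% and 41.9%. The 4 were Chil3, a chitinase-like protein of monocytes and macrophages, the proteoglycan Vcan, the sialic acid receptor Cd33 and Ms4a8a. Ms4a8a, at 9.99 CPM in TV, passed the limit through FV alone. Chil3 stood at 1140.1 CPM in FV, 359 CPM in TV and 115 CPM in Non (-1.67). Vcan stood at 401 CPM in FV, 138 CPM in TV and 34.1 CPM in Non (-1.54). For both genes FV was highest and TV lay above Non. Ccr2, the receptor by which these cells leave the marrow, differed less, with 529.6 CPM in FV and 377 CPM in TV (-0.49), and the growth factor receptor Csf1r stood at 305 and 327 CPM (0.10). Ly6c2, the surface mark of the subset, was higher in TV, at 68.3 against 38.6 CPM (0.82), but turned to -0.26 with library size alone. The nonclassical monocyte list, the patrolling subset, had a median of -0.02 over 19 of 24 genes with none 2-fold apart.

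Some myeloid genes were at least 2-fold lower in TV, on pathway lists whose members did not share a direction. Among 9 chemokine receptor genes that passed, 4 were above 0, 1 was at least 2-fold higher and 1 lower. Among 16 Fc and complement receptor genes, 8 were above 0 and 1 was at least 2-fold lower. Among 8 leukotriene genes, 3 were above 0, 2 were at least 2-fold higher and 2 lower. The chemokine receptor Ccr1 stood at 86.3 CPM in FV and 28.0 CPM in TV (-1.62), and the receptor of complement C5a, C5ar1, at 54.6 and 25.8 CPM (-1.08). In the leukotriene list, the dipeptidase Dpep2, which converts leukotriene D4 to E4, stood at 38.6 and 13.8 CPM (-1.48), and the leukotriene B4 receptor Ltb4r1 at 25.6 and 11.4 CPM (-1.17). Among genes on no list, chosen here after their values were seen, the scavenger-type and matrix genes of macrophages Apoe (-1.06), Tgfbi (-1.23), Ctsl (-1.63) and Mmp19 (-1.45) lay on the same side. Ms4a6d stood at 133 CPM in FV and 40.4 CPM in TV (-1.72).

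Erythroid genes were the largest group on the higher side. Of 78 genes on the 4 erythroid lists, 63 passed the expression limit. In TV 46 were at least 2-fold higher and 2 at least 2-fold lower, against 5.69% and 1.01% of all genes. Their median log2 fold was 1.45. The size of this difference depended on the scaling. The medians of the 4 lists ran from 0.11 to 0.51 with library size alone and from 0.12 to 0.22 on the TPM scale. On those scales only 9 and 3 of all genes compared were at least 2-fold higher, around all-gene medians of -1.14 and -1.25. The TV library also had the highest globin share of the series, but the adult globins that make up that share are themselves on these lists. The adult globins were close to each other: Hba-a1 had a log2 fold of 1.5, Hba-a2 1.41, Hbb-bs 1.48 and Hbb-bt 1.58. Alas2, which makes the first step of heme synthesis in red cells, stood at 7734 CPM in FV, 24648 CPM in TV and 9354 CPM in Non (1.67). Ferrochelatase (Fech), the last step, stood at 1794 CPM in FV and 5657 CPM in TV (1.66), and the mitochondrial carrier Slc25a39 at 874 and 3037 CPM (1.80). Other enzymes of the pathway were less far apart, with Urod at 1.45, Alad at 0.75, Cpox at 0.25 and Ppox at 0.14, each at 34.2 CPM or less in FV.

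The red cell membrane and skeleton list had the highest median of all lists, 1.58. At least 2-fold higher were 14 of the 17 genes that passed, against 5.69% of all genes. The anion exchanger Slc4a1 (band 3) stood at 211 CPM in FV, 693 CPM in TV and 440.1 CPM in Non (1.72). Sptb, a spectrin of the net under the membrane, had a log2 fold of 1.87, and the actin cap Tmod1 of 2.03. For Slc4a1 and Sptb the FV library had the lowest level of the 7, so both libraries were at an extreme. Slc2a1, a glucose transporter of many cell types, was on the other side of 0, with 23.5 CPM in FV and 16.1 CPM in TV (-0.55). Aqp1, the water channel, stood at 48.4 and 126 CPM (1.38), but lay at -0.27 in the pair with ibuprofen.

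Genes of reticulocyte maturation were higher with them. Trim10, an erythroid RING protein, stood at 96.3 CPM in FV, 389.9 CPM in TV and 192 CPM in Non (2.02). The ubiquitin-conjugating enzymes Ube2l6 and Ube2o had log2 folds of 1.85 and 1.47, the mitophagy receptor Bnip3l 1.56, the peroxidase Prdx2 1.89, Gpx1 1.61 and the enzyme of 2,3-bisphosphoglycerate, Bpgm, 1.59. Some genes on no list, picked as examples after their values were seen, lay in the same range. From iron-sulfur cluster assembly these were Iscu at 1.84, Isca1 at 1.72, Glrx5 at 1.86, Bola3 at 1.71 and Hscb at 1.61. From autophagy they were Gabarapl2 at 1.62, Optn at 1.63, Wipi1 at 1.31 and Pink1 at 1.37, and from the ubiquitin ligases Rnf10 (1.82) and March2 (1.72). Other members of these pathways were not counted, so the examples do not describe a pathway as a whole. At least 2-fold higher in TV were 5.69% of all genes. Phospho1, a phosphatase of phosphocholine and phosphoethanolamine, had the second largest fold of the named genes higher in TV, with 60.0 CPM in FV, 381 CPM in TV and 209 CPM in Non (2.67). Gdpd3 stood at 84.1 and 389 CPM (2.21) and the cold shock protein Ybx3 at 177 and 753 CPM (2.09).

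Some globin genes went against the rest. Hbb-bh1 and Hbb-y, the embryonic globins of the beta cluster, stood at 78.4 and 79.9 CPM in FV and at 32.1 and 33.3 CPM in TV, with log2 folds of -1.29 and -1.26. Hbq1a, a theta globin, had the largest fold of all named genes, with 7.18 CPM in FV, 152 CPM in TV, 116 CPM in Non, 15 CPM in RP without ibuprofen and 123 CPM in RP with it, a log2 fold of 4.40. Its neighbour copy Hbq1b differed far less, at 120.2 CPM in FV and 204 CPM in TV (0.76). The counts of Hbb-bh1 and Hbb-y were nearly equal in every library, such as 4387 and 4476 in FV and 1050 and 1091 in TV. They may therefore not be 2 separate readings. These globin genes lie in families of related copies, and how reads were shared among copies was not given in the sources used here. Their single values are therefore uncertain.

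Cell cycle genes were split. Of 32 genes on the list only 6 passed, with a median of 0.66. At least 2-fold higher were 3, against 5.69% of all genes. Mki67, the proliferation antigen, stood at 46.4 CPM in FV and 119 CPM in TV (1.36), Ube2c at 83.3 and 228 CPM (1.45) and cyclin A2 (Ccna2) at 6.16 and 25.2 CPM (2.03). All 3 had their highest level of the 7 libraries in TV. Ccna2 was below 10 CPM in FV and passed the limit through TV alone. The replication genes Pcna (-0.13), Mcm4 (-0.50) and Mcm6 (-0.04) were not higher. The list median turned to -0.42 under library size alone and -0.60 on the TPM scale, where the all-gene medians were -1.14 and -1.25.

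Platelet genes were higher in TV as a group, by less than erythroid ones. Of 58 genes on the platelet lists 48 passed, with a median log2 fold of 0.86. Above 0 were 47 and at least 2-fold higher 15, against 41.9% and 5.69% of all genes. Integrin alpha IIb (Itga2b), the fibrinogen receptor chain of platelets, stood at 616 CPM in FV, 1130.1 CPM in TV and 269 CPM in Non (0.88). The von Willebrand receptor chain Gp1ba stood at 25 CPM in FV and 57.2 CPM in TV (1.19), and the collagen receptor Gp6 at 39.7 and 89.9 CPM (1.18). The chemokines of alpha granules, Ppbp and Pf4, stood at 565 and 345 CPM in FV and 958 and 524 CPM in TV (0.76 and 0.60), and Nrgn at 938 and 2240.5 CPM (1.26). The one member below 0 was F13a1 (-0.50), which monocytes also express and which is on the classical monocyte list. Both list medians were below 0 on the other scales, at -0.16 and -0.27 with library size alone and -0.39 and -0.49 with TPM. They stayed above the all-gene median in each, but with library size this was nearly fixed in advance, since all folds shift alike.

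The prostanoid list bears on the target of ibuprofen, although neither library of this pair had the drug. Of 24 genes 7 passed, with a median of 0.07, which turned to -1.08 with library size alone and -1.63 on the TPM scale. Ptgs1, the constitutive cyclooxygenase that platelets use to make thromboxane, stood at 33.5 CPM in FV, 68.1 CPM in TV and 17.6 CPM in Non (1.02), and turned to -0.06 with library size alone. Thromboxane synthase (Tbxas1) stood at 18.8 and 31.2 CPM (0.73), and the prostacyclin receptor Ptgir at 9.36 and 13.3 CPM (0.50). Ptgs2, the inducible cyclooxygenase, was below the expression limit, with 162 counts in FV and 131 counts in TV, or 2.89 and 4.00 CPM (0.46). In the leukotriene list, the platelet lipoxygenase Alox12 stood at 179 CPM in FV and 369.9 CPM in TV (1.05) and the receptor Cysltr2 at 7.07 and 15.7 CPM (1.14), opposite to Dpep2 and Ltb4r1. Alox12 also turned, to -0.03 with library size alone and -0.26 on the TPM scale. The members of the leukotriene list thus did not share a direction, and Alox5ap (-0.02) and Cyp4f18 (0.27), which myeloid cells express, were closer to equal.

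Lymphocyte genes divided by lineage. All 28 B cell genes that passed, of 32 on the list, were above 0 in TV over FV, against 41.9% of all genes. At least 2-fold higher were 3, against 5.69%, and the median was 0.69. The signal chain of the B cell receptor, Cd79a, stood at 60.0 CPM in FV, 102 CPM in TV, 170.5 CPM in RP without ibuprofen and 149 CPM in Non (0.77). The immunoglobulin of naive B cells, Ighd, stood at 37.7 CPM in FV, 78.9 CPM in TV and 121 CPM in Non (1.07). Both libraries of the pair were therefore below Non, and FV was the lowest of the 7 for Cd79a and Ighd. Scd1 (1.15), a fatty acid desaturase, and Cxcr5 (1.05), the receptor for entry into follicles, were the others at least 2-fold higher. Cxcr5, at 7.93 CPM in FV, passed the limit through TV alone. The B cell median was -0.38 with library size alone and -0.66 on the TPM scale.

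Plasma cell genes lay on the other side. Of 20 genes 7 passed, 2 were at least 2-fold lower, against 1.01% of all genes, and the median was -0.74. The joining chain of secreted antibodies, Jchain, stood at 101 CPM in FV, 28.4 CPM in TV, 36.0 CPM in RP without ibuprofen and 62.9 CPM in Non (-1.82). The heavy chain of IgA, Igha, stood at 399.8 CPM in FV, 123 CPM in TV, 133 CPM in RP without ibuprofen and 254 CPM in Non (-1.70). For both genes FV was the highest and TV the lowest of the 7 libraries. Chaperones of the endoplasmic reticulum, which fold secreted proteins, were also lower in TV: Pdia6 stood at 109 and 51.3 CPM (-1.08), Pdia4 at -0.92, Hspa5 at -0.77 and Calr at -0.74. Chaperones of the cytosol on the same list were less than 2-fold apart, with Hsph1 at 0.75, Dnajb1 at 0.69, Hsp90aa1 at 0.52 and the abundant Hspa8 at 0.026 (453 CPM in FV and 461 CPM in TV), and these 4 were below 0 with library size alone. The heat shock and unfolded protein list as a whole had a median of -0.05 over 20 genes.

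T cell genes were mostly lower in TV by less than 2-fold. The receptor and signalling list had a median of -0.43 over 25 genes that passed. Above 0 were 5 and at least 2-fold lower 2, against 41.9% and 1.01% of all genes. The 2 were the chains of CD8, the coreceptor of cytotoxic T cells: Cd8a stood at 23.5 CPM in FV and 11.1 CPM in TV (-1.08) and Cd8b1 at 18.8 and 9.29 CPM (-1.02), with the other 5 libraries between 24.4 and 35.5 CPM for Cd8a. Cd4, the coreceptor of helper T cells, stood at 35.8 CPM in FV and 39.1 CPM in TV (0.13), against 75.3 CPM in Non. Cd8a and Cd8b1 thus set TV below every other library, while Cd4 was nearly level in the pair. Cd8b1 was below 10 CPM in TV and passed the limit through FV alone. All 10 NK and cytotoxic genes that passed were below 0, where 58.1% of all genes lay, with a median of -0.55 and none 2-fold apart. The activating receptor Ncr1 stood at 27.7 and 16 CPM (-0.79). The naive T cell list had a median of -0.03 over 22 genes. Only 2 of 16 regulatory T cell genes passed. Below the limit Foxp3 had 474 counts in FV and 202 counts in TV, or 8.47 and 6.17 CPM (-0.45). Ctla4 had 521 and 108 counts, or 9.31 and 3.30 CPM (-1.49).

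**Figure D3:**
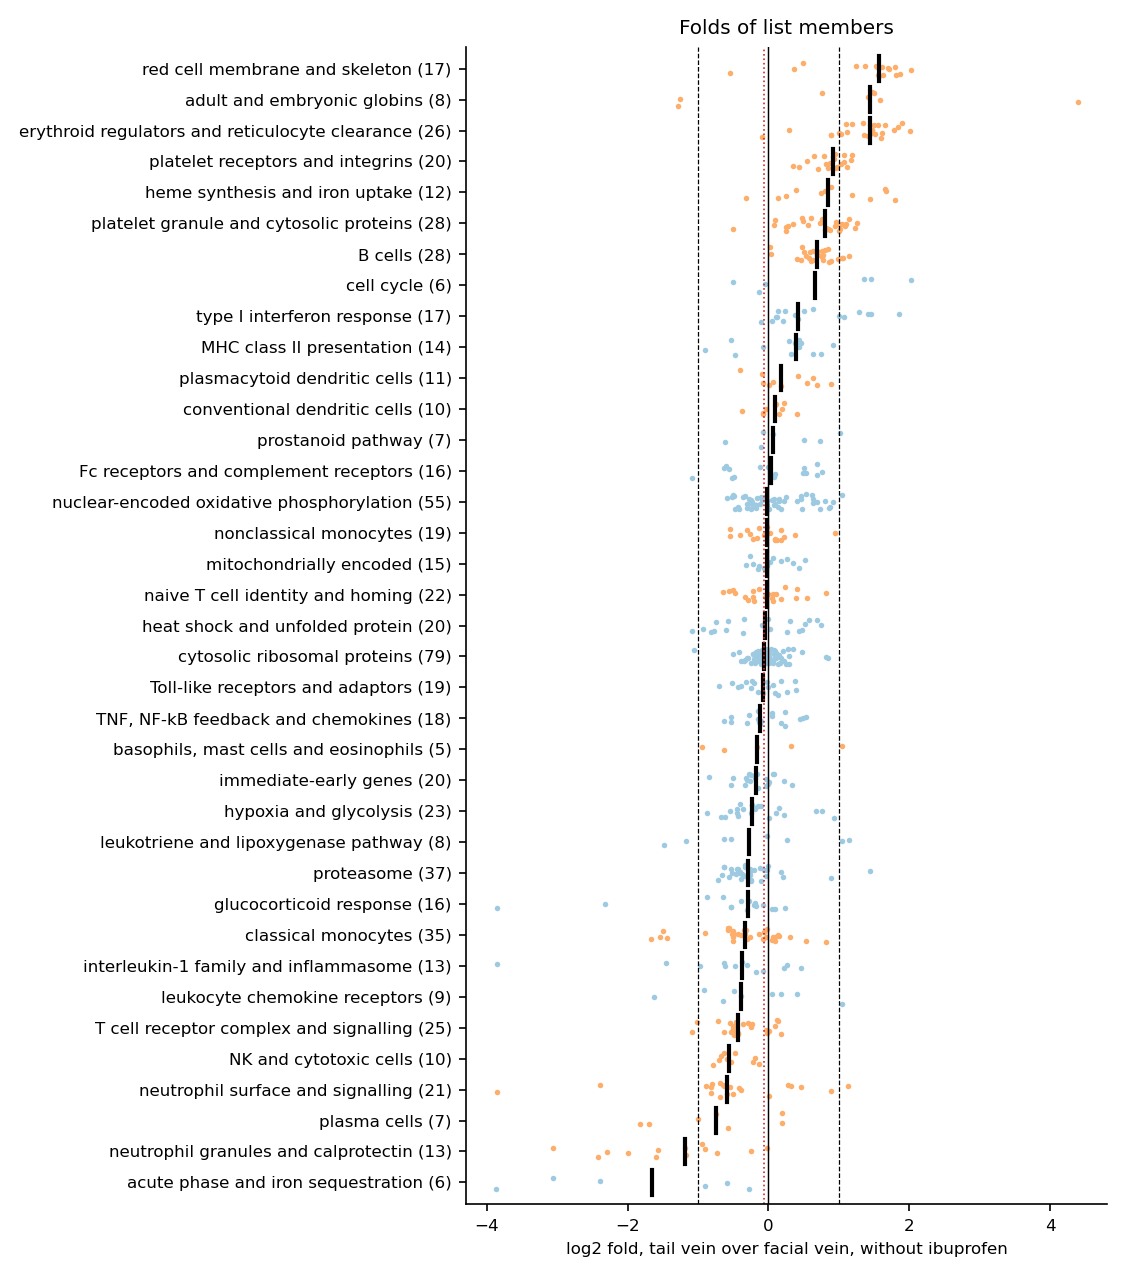
Each point is the log2 fold of TV over FV, without ibuprofen, of a list member that passed the expression limit (orange for cell type lists, blue for pathway lists), and the black tick is the median of its list, with the number of genes in brackets. The dotted line is the all-gene median of -0.06 and the dashed lines mark 2-fold; medians run from 1.58 for red cell membrane genes to -1.65 for acute phase genes, and of the 14 medians above 0 the 10 that are not erythroid turn below 0 when counts are scaled by library size alone or read as TPM.

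Genes induced by type I interferon were higher in TV under the main scaling. Of 30 genes 17 passed, 16 were above 0 and 6 were at least 2-fold higher, against 41.9% and 5.69% of all genes. The median of 0.42 turned to -0.85 with library size alone and -0.80 on the TPM scale. Rsad2 (viperin), an antiviral enzyme, stood at 279 CPM in FV, 749 CPM in TV and 342 CPM in Non (1.42). Isg15, the ubiquitin-like modifier, stood at 21.8 CPM in FV and 60.0 CPM in TV (1.46), and Xaf1 at 6.04 and 22.0 CPM (1.86). Ifit2 (1.28), Oasl2 (1.08) and Oas3 (1.01) were the others, and Oas3 turned to -0.0693 with library size alone. Xaf1, Oasl2 and Oas3 were below 10 CPM in FV and passed the limit through TV alone, which favours higher members in the count. Stat2 (0.13) and Irf9 (0.12), which carry the signal of the pathway, were closer to equal. Rsad2 and Isg15 had log2 folds of 0.95 and 1.16 in the pair with ibuprofen, where the list median was -0.18.

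Ribosomal protein, oxidative phosphorylation and mitochondrially encoded genes had medians close to the all-gene median of -0.06. Proteasome and MHC class II genes lay further from it. The 79 cytosolic ribosomal protein genes had a median of -0.06, with only Rpl29 2-fold apart (-1.05), a gene with many processed copies whose level ranged from 6.11 to 44.9 CPM over the series. Oxidative phosphorylation genes had a median of -0.02 over 55 genes, and Cox6a1 (1.04) was the only one 2-fold apart; it turned to -0.04 with library size alone. Mitochondrially encoded genes had a median of -0.02. Proteasome genes had a median of -0.29, with 4 of 37 above 0, against 41.9% of all genes. Among these 4, Psmf1 (1.44), a proteasome inhibitor, and Psmd4 (0.89), a ubiquitin receptor, stood apart from the others. Glycolysis and hypoxia genes had a median of -0.23, with Slc2a3, the glucose transporter of platelets and leukocytes, at 0.93 and Eno1 at -0.61. MHC class II genes had a median of 0.39, from H2-Ob at 0.91 to Lgmn at -0.90, and the conventional and plasmacytoid dendritic cell lists of 0.10 and 0.18. With library size alone these turned to -0.69, -0.97 and -0.95, and the Fc and complement receptor list went from 0.04 to -1.04.

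Most tissue genes of the collection sites lay below the expression limit, with up to 213 counts in FV and 112 counts in TV. Of 26 skin and hair genes none passed the expression limit, and 13 were at 0 in FV and 15 in TV. Below the limit, the skin gene Dmkn had 213 counts in FV and 6 in TV, Krt7 143 and 10, and Scd3 109 and 0. Of members with similar counts in FV, Sbsn stood at 2.32 and 1.41 CPM (-0.71) and Sfn at 1.98 and 1.22 CPM (-0.68). Both were higher in RP without ibuprofen than in FV, at 3.94 and 2.87 CPM. Of 23 skeletal muscle and tendon genes 1 passed (Eno3, 0.03), and of 20 salivary and lacrimal gland genes 1 (Slc12a2, -0.55), which monocytes also express. Of 23 endothelial and stromal genes 2 passed, Vwf and Pecam1, both also expressed by platelets, at 0.94 and 0.92. The summed level of the skin list was 14.8 CPM in FV and 4.28 CPM in TV, against 6.47 to 9.17 CPM in the other 5 libraries, and its part in the other results was not tested.

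The same routes were also sampled with ibuprofen, in libraries that the pair above does not share. There 74 of 6181 genes were at least 2-fold higher in TV, or 1.2%, and 203 at least 2-fold lower, or 3.28%, together 4.48%. Of these 6181 genes, 43.9% were above 0 and 56.1% below. Under the main scaling the balance of higher to lower genes was therefore the other way round in the pair with ibuprofen. With library size alone, lower genes outnumbered higher ones without ibuprofen as well, at 3808 against 9. Of the 349 genes higher in TV without ibuprofen, 231 were above 0 with ibuprofen, 75 were at least 2-fold higher and 35 at least 2-fold lower there, with a median log2 fold of 0.63 against 1.29. The 2 gene sets differ, since each pair had its own expression limit. Of the 349, 323 also passed the limit with ibuprofen, and 67 of these were among the 74. Of the 62 lower genes, 52 were below 0 with ibuprofen, 25 at least 2-fold lower and 1 at least 2-fold higher, with a median of -0.83 against -1.47. Over all 6133 genes the median with ibuprofen was -0.08. The difference between the pairs was not tested, since no residual spread is left with 1 library per group.

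By group, the erythroid median was 1.45 without and 0.95 with ibuprofen, the neutrophil granule median -1.19 and -1.08, the acute phase median -1.65 and -1.34, and the B cell median 0.69 and 0.55. Under the main scaling these groups lay on the same side of 0 in both pairs, although the levels could be far apart. S100a8 stood at 65.9 CPM in FV and 12.4 CPM in TV with ibuprofen, against 241 and 49.4 CPM without it. The platelet genes did not, with a median of 0.86 without and -1.03 with ibuprofen, where 46 of the 48 were below 0 and 25 at least 2-fold lower. Itga2b stood at 821 CPM in FV and 387 CPM in TV with ibuprofen. The T cell receptor list had medians of -0.43 and 0.33, plasma cell genes -0.74 and -0.11, and classical monocyte genes -0.33 and -0.91. Cd8a stood at 24.4 CPM in FV and 32.2 CPM in TV with ibuprofen, and Igha at 263 and 279 CPM. Fkbp5 (-0.57) and Lbp (-0.59) were less far apart with ibuprofen, where FV held 19.1 and 3.93 CPM of them.

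**Figure D4:**
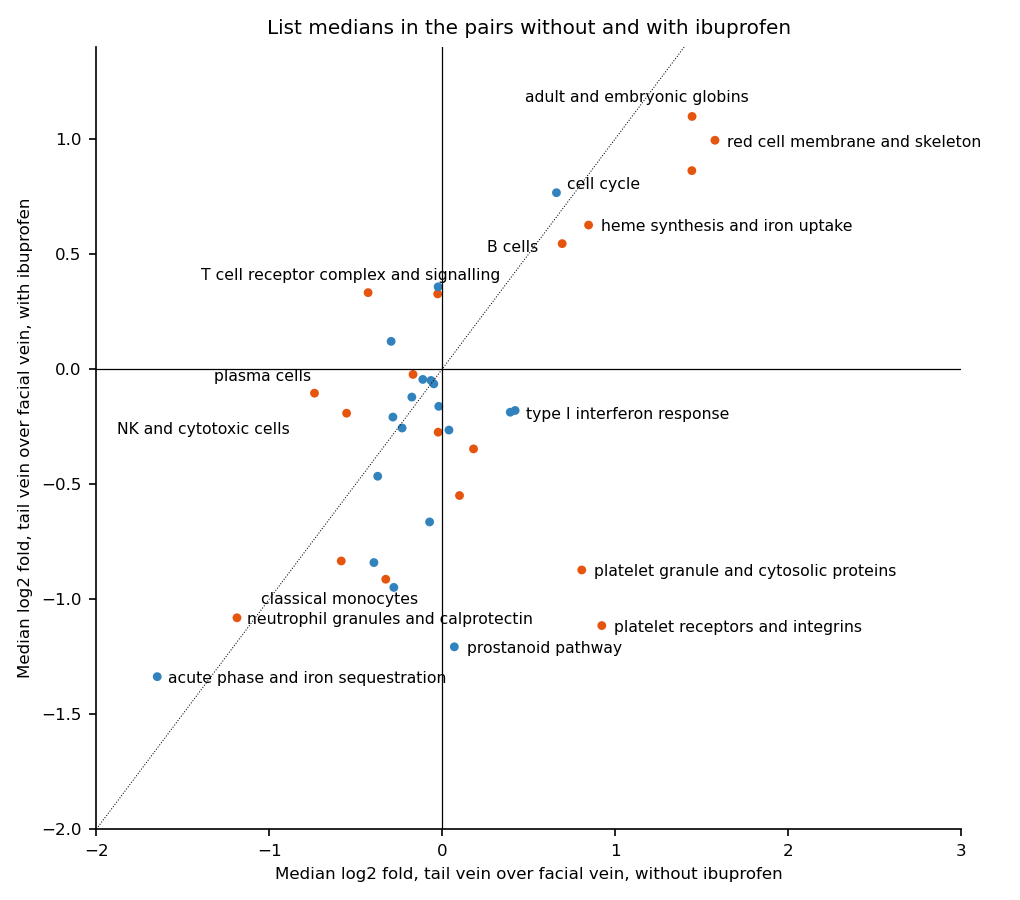
Each point is a gene list (orange for cell types, blue for pathways), placed by its median log2 fold of TV over FV without ibuprofen (horizontal) and with ibuprofen (vertical); the dotted line marks equal medians. Erythroid lists lie above 0 and neutrophil granule and acute phase lists below 0 on both axes, while the platelet lists lie at 0.92 and 0.81 without ibuprofen and at -1.12 and -0.87 with it; the positions right of 0 on the horizontal axis turn below 0 under library size or TPM scaling, except those of the 4 erythroid lists.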

How the data were processed

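RNA sequencing of PBMC gave 1 library for each of 7 groups, at week 8 of collection. Per the labels' protocols, total RNA was turned into libraries by a stranded mRNA kit. The tools were Trimmomatic 0.38 and HISAT2 2.1.0 and the build was mm10, per the submitters' processing notes, which name no roles. The counting program, annotation release, use of strand and any pooling were not given in the sources used here. Per the file headers, the authors deposited read counts per gene, which are whole numbers without normalization, and these were the main data. The authors also deposited TPM values, scaled for gene length and to a common sum, used as an alternative scale, and FPKM values, not used. Columns were matched to samples by library number, and 45679 of 45777 gene IDs to a GRCm38.p6 table.

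Counts were scaled by TMM over the 7 libraries (edgeR 4.0.16, R 4.3.3) and given as CPM, with log2 CPM at a prior count of 2. A fold is TV over FV on that log2 scale, and a gene is called higher or lower at 2-fold. Genes needed a mean of 10 CPM in the pair; a low gene can pass through its higher library alone. Counts of 3 were the floor. Counting intervals are 95% and exact. No test was run. The steps were checked on simulated counts with known folds, in which most genes were left unchanged. That check could not decide which scaling is right for the TV library. A chi-square comparison of library pairs, lowest at 30.7 per degree of freedom, found no repeated library. The members and 42 lists (1078 genes, 21 not in the table used) were chosen with earlier results of these data known; 37 lists had at least 5 genes past the filter. Named genes are the 12 largest folds per direction without predicted genes, clones, pseudogenes and receptor segments, the 4 members of each list with the highest level and its largest 2-fold members, Ptgs1 and Ptgs2; further list members are named as examples chosen after their values were seen. Alternatives were other scalings (DESeq2 1.42.0 size factors among them), filters and prior counts. Promoters came from RefSeq.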

Additional observations from a re-analysis of the deposited data

Results flagged for a closer look

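Under the main scaling, some results had the opposite direction in the pairs of libraries without and with ibuprofen. In each case the difference between the pairs was not tested, and with 1 library per group there was nothing to test it against. The platelet receptor and integrin list had a median log2 fold of TV over FV of 0.92 without ibuprofen and -1.12 with it, and the platelet granule and cytosolic list of 0.81 and -0.87. With library size alone, the platelet medians without ibuprofen were -0.16 and -0.27. The prostanoid list, which shares Ptgs1 and Tbxas1 with the platelet lists, had medians of 0.07 and -1.21. Its 0.07 was close to the all-gene median of -0.06 and turned to -1.08 with library size alone. Among the genes with the largest folds, Ccdc6 lay at -2.14 without ibuprofen, where TV held 4.28 CPM against 17.6 to 28.8 CPM in the other 6 libraries, and at 0.55 with it. Slc39a14 lay at -2.01 and 0.15, and Pcp4l1 at 2.14 and -0.62. Pcp4l1 stood at 24.2 CPM in FV and 107 CPM in TV without ibuprofen and at 60.0 and 39.1 CPM with it, against 1.14 CPM in Non.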

How the results depend on the processing

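The main counts of 349 higher and 62 lower genes stayed within 1.5 times with DESeq2 size factors (389 and 58), TMM on the pair alone (365 and 49) and prior counts of 0.5 (350 and 62) and 10 (344 and 62). TMM without the erythroid lists gave 447 and 102. Library size alone gave 9 and 3808, the deposited TPM (pseudocount of 1) 3 and 1416, no expression filter 2000 and 2386, and a mean of at least 50 CPM 216 and 23. The first 2 of these shift the all-gene median to -1.14 and -1.25, so that higher genes made up 0.236% and 0.211% of those 2-fold apart, against 84.9% in the main setting and 45.6% without a filter; the filters change how many genes are compared. Of 37 lists, 37 kept their side of the all-gene median with DESeq2 factors, TMM on the pair, library size and both prior counts. A change of scaling adds nearly the same amount to every fold, so keeping sides was nearly fixed in advance for those scalings. The side was kept by 27 of 33 lists without erythroid genes in TMM, 30 with TPM, 31 without a filter and 25 of 36 at 50 CPM. Of the 14 list medians above 0, 10 turned below 0 with library size and with TPM. Among those of at least 0.5 these were platelet receptors (-0.16 and -0.39), platelet granule genes (-0.27 and -0.49), B cells (-0.38 and -0.66) and cell cycle genes (-0.42 and -0.60). The others were type I interferon genes (-0.85 and -0.80), MHC class II (-0.69 and -0.89), conventional (-0.97 and -1.35) and plasmacytoid (-0.95 and -1.07) dendritic cells, the prostanoid list (-1.08 and -1.63) and Fc and complement receptors (-1.04 and -1.75). So did Alox12 (-0.0335 and -0.26) and Cox6a1 (-0.0375 and -0.28). With library size alone Gata2 (-0.0252) and Ptgs1 (-0.0570) reversed. With TPM Fth1 (-0.20), Grina (-0.20), Itga6 (-0.23), Nrgn (-0.0663) and Slc25a37 (-0.13) did. All other named genes at least 2-fold apart kept their sign, 60 of 64 with library size and 41 of 48 with TPM; of all named genes 119 of 177 and 96 of 149 did. The summed neutrophil granule level, FV over TV, moved from 1.34 to 2.83 without Lyz2, an alternative chosen after seeing the data. Leaving out a replicate was not possible with 1 library per group. No paired analysis was possible because each group had a single library and the labels give no replicate numbers.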

Other observations

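Further genes on no list, chosen after their values were seen, were among the largest folds. Slc48a1, a heme transporter of lysosomes, stood at 297 CPM in FV and 1124 CPM in TV (log2 fold 1.92). Ucp2, a mitochondrial carrier, had a log2 fold of 1.72, and Cd24a, a surface protein of young red cells and B cells, of 1.58. Acmsd, an enzyme of tryptophan breakdown, stood at 8.39 CPM in FV and 35.7 CPM in TV (2.09). Ly6a2 stood at 4.45 and 20.1 CPM (2.17) while its neighbours Ly6a (-1.05) and Ly6c1 (-1.05) lay on the other side; the family has near-identical members. Rec114 and Mpp2 had log2 folds of 2.14 and 2.25.

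On the lower side, Emp1, a membrane protein, stood at 47.6 CPM in FV and 8.86 CPM in TV (-2.42), against 12.8 CPM in Non. The predicted gene Gm20716, left out of the naming rule, had 31.5 CPM in FV and no count in TV, and its level also varied widely among the other libraries, from 0 to 16 CPM. The prion protein gene Prnp (-1.92) and Siglece (-1.72), an inhibitory receptor of myeloid cells, were also at least 2-fold lower in TV.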
